A study of Homo sapiens with 8 samples.

Results

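A set of 9 of the 60282 genes listed for each library was taken by gene symbol: BRD2, BRD3, BRD1, CDK9, CCNT1, CCNT2, HEXIM1, LARP7 and SERTAD1. BRD2 and BRD3 encode BET bromodomain proteins, and CDK9, CCNT1 and CCNT2 encode the kinase and the cyclins of P-TEFb. HEXIM1 and LARP7 encode proteins of the 7SK particle that holds P-TEFb inactive. BRD1 and SERTAD1 belong to neither group. BRD1 is a bromodomain scaffold of histone acetyltransferase complexes of the BRPF type, and SERTAD1 is a SERTA domain protein that binds CDK4 and E2F factors. All 9 genes passed the filter on low counts, which 14073 genes passed in all. The libraries came from SK-UT-1, an established human uterine leiomyosarcoma cell line. The cells received TP-472, an inhibitor of the bromodomains of BRD9 and BRD7, at 5 µM for 48 h, or vehicle, which the labels name as DMSO, and 4 libraries were made for each group. Both groups were the same cell line without any engineered allele, and all 8 libraries came from it.

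BET proteins bind acetylated histones through paired bromodomains and help to bring P-TEFb to promoters and enhancers. P-TEFb, made of CDK9 and a T-type cyclin, phosphorylates RNA polymerase II and its pausing factors and so lets the polymerase leave the promoter-proximal pause. A large share of P-TEFb is kept inactive by HEXIM proteins on 7SK RNA, which LARP7 and MEPCE stabilise. HEXIM1 and SERTAD1 are known to rise when cells are given BET inhibitors.

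Total counts per library ran from 32574672 to 36634103 in the vehicle group and from 36246277 to 38545464 in the TP-472 group. Levels are given as TMM-scaled CPM, that is, counts relative to a library total that was scaled for size and composition, with the usual CPM unit. Differences are log2 fold changes of TP-472 over vehicle from edgeR's quasi-likelihood test with Benjamini-Hochberg adjustment over all 14073 genes. A call of differential expression needed both an adjusted p-value below 0.05 and a change of more than 1.5-fold. The methods state that all experiments had biological replicates, but the labels do not say whether these libraries came from separate cultures. The p-values therefore measure the spread between these libraries, which may be technical. Fewer transcripts per cell and fewer cells that carry the transcript cannot be told apart in RNA from whole cultures.

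The markers of the labelled cell type were present in part, and some moved with TP-472. Of 8 smooth muscle markers 6 passed the filter, 2 were called lower and none higher, against 14.9% and 12% of all genes, and their summed level was 437.7, 475.9, 520.5 and 479.0 CPM in vehicle and 379.1, 377.1, 372.6 and 370.1 CPM with TP-472. CALD1, a calmodulin-binding actin regulator and the most abundant, was at 199.6 ± 15.3 CPM in vehicle and 191.6 ± 5.65 CPM with TP-472 (SD, n = 4 each). DES, the desmin gene, fell from 3.25 to 0.63 CPM, a difference of -2.36 (SE 0.223, adjusted p = 1.9e-04), and TAGLN, the transgelin gene, fell from 32.3 to 20.3 CPM, a difference of -0.67 (SE 0.123, adjusted p = 0.0040). ACTA2, the smooth muscle actin, was at 160 ± 16.7 CPM in vehicle and 109 ± 3.52 CPM with TP-472, a difference of -0.55 (SE 0.103, adjusted p = 0.0043) under the fold limit, which was passed without vehicle replicate 3 at -0.59. With the GC trend removed TAGLN was at -0.45 (adjusted p = 0.0320), under the fold limit, so DES alone was called lower. DES passed the filter through the vehicle libraries alone, so it had to be lower to be tested and the count of 2 is not read against the background. MYH11, the smooth muscle myosin heavy chain, had 0, 0, 0 and 1 counts in the vehicle libraries and 10, 8, 7 and 10 with TP-472, and MYOCD, the myocardin cofactor, had 5, 1, 0 and 0 and then 1, 3, 1 and 8.

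Markers of other cell types were low. Of 5 epithelial markers 3 passed the filter, with summed levels of 17.5 to 23.1 CPM in vehicle and 20.4 to 26.8 CPM with TP-472. KRT18, a simple epithelial keratin, rose from 7.39 to 15.6 CPM (1.08, SE 0.136, adjusted p = 7.3e-04), KRT19 fell from 8.88 to 4.93 CPM (-0.85, SE 0.214, adjusted p = 0.0151), and KRT8 was at 1.999 and 2.859 CPM (0.52, SE 0.221, adjusted p = 0.0959). With the GC trend removed KRT19 was at -0.52 (adjusted p = 0.0277), under the fold limit, and KRT8 at 0.74 (adjusted p = 0.0254) was called higher. EPCAM and CDH1 were under 1 CPM in both group means. Of 5 leukocyte markers CD68, a lysosomal protein, alone passed the filter, at 7.53 CPM in vehicle and 10.4 CPM with TP-472 (0.47, SE 0.142, adjusted p = 0.0307, under the fold limit), and at 0.62 (adjusted p = 0.0076) with the GC trend removed, where it was called higher. PTPRC had no count in any vehicle library and 1 count in all TP-472 libraries together, and CD3E had none in any library. The endothelial markers PECAM1, CDH5, VWF and KDR were all under 0.21 CPM in both group means. The part of these markers in the results for the 9 genes was not tested.

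Vehicle replicate 3 stood apart from the other 7 libraries. On the first principal component of log2 CPM, which held 65.8% of the variance, it lay at -94.03, while the other vehicle libraries lay at -36.36, -13.49 and -14.54 and the TP-472 libraries between 36.99 and 43.42. Its levels also followed the GC content of the transcripts. Relative to the mean of all libraries, its median log2 deviation was -0.64 over the genes lowest in GC (27.1% to 42.0%) and 0.92 over those highest (58.2% to 74.2%), and these medians lay between -0.28 and 0.17 in every other library. Levels of the 9 genes in it differed from the other vehicle libraries too. BRD3, BRD1 and CDK9, with a GC content of 56.2%, 54.6% and 58.8%, stood at 2.36, 1.96 and 1.92 times the mean of the other vehicle libraries. LARP7, CCNT1 and CCNT2, with 38.7%, 41.6% and 39.6% GC, stood at 0.636, 0.645 and 0.562 times that mean. BRD2 and SERTAD1, with 53.5% and 53.9% GC, stood at 1.26 and 1.25 times. HEXIM1, whose GC content of 48.2% is just under the median of the genes tested (49.1%), stood at 1.53 times. On the log2 scale BRD3 and HEXIM1 were at 1.24 and 0.61, above the medians of genes of like GC content (0.62 and -0.02) but within their 10th to 90th percentiles. The part of GC content in that library's levels was not tested for single genes, so the fitted difference of each of the 9 genes is given with this library and without it, and that of some other genes, among them those whose direction or call changed without it.

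**Figure D1:**
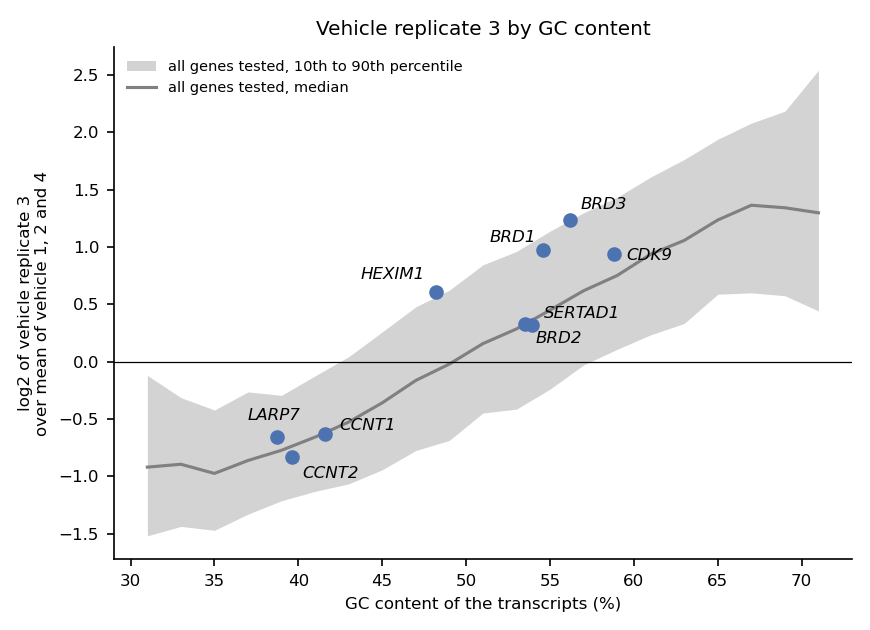
The log2 ratio of vehicle replicate 3 over the mean of vehicle replicates 1, 2 and 4 (y axis) against the GC content of the transcripts in percent (x axis) is plotted for the 9 genes as points, and for all genes tested as the median (line) and the 10th to 90th percentile (band). LARP7, CCNT1 and CCNT2 lie below 0 at the low-GC end and CDK9, BRD1 and BRD3 lie highest at the GC-rich end.

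Of the 9 genes, SERTAD1 rose, BRD3 fell and the other 7 did not pass both limits. Over all genes tested 12% were called higher and 14.9% lower, 26.9% in either direction, so 2 calls among 9 genes lie near the background. At the adjusted p-value alone, 3 of the 9 genes passed (SERTAD1 and BRD2 higher, BRD3 lower), against 36.3% of all genes (17.2% higher, 19.1% lower). The libraries of both groups did not overlap for 5 of the 9 genes, BRD2, CCNT1 and SERTAD1 with TP-472 above and BRD3 and BRD1 with TP-472 below, against 45.4% of all genes (23.8% above, 21.6% below). Without vehicle replicate 3, SERTAD1 and BRD3 were again the 2 genes called, where 25.5% of all genes were called (12% higher, 13.4% lower). In that fit 7 of the 9 genes passed the adjusted p-value alone, 4 higher and 3 lower, against 57% of all genes (28.6% higher, 28.4% lower). With the GC trend removed from all 8 libraries, SERTAD1 and BRD3 were called once more, where 13.4% of all genes were called higher and 14.8% lower, and 8 of the 9 genes passed the adjusted p-value alone, against 53.3% of all genes.

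**Figure D2:**
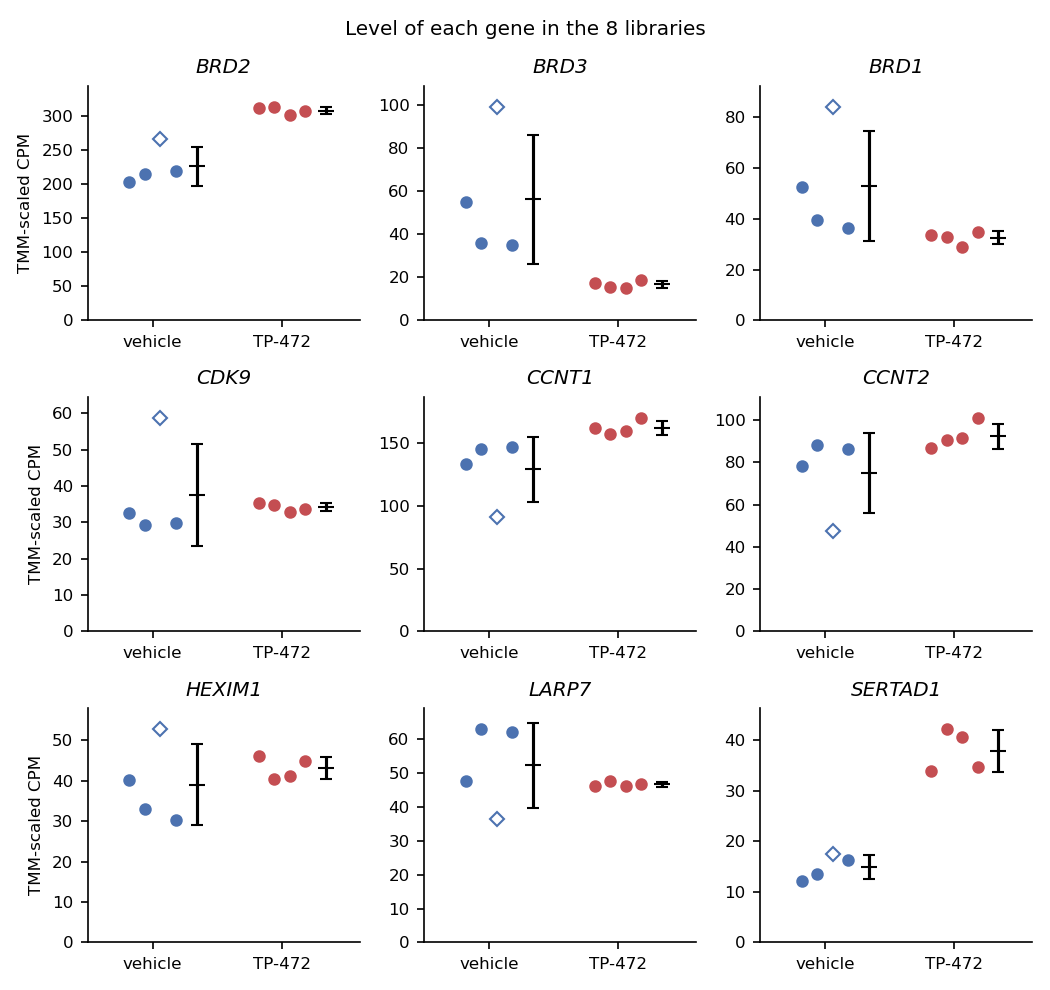
TMM-scaled CPM (y axis, from 0) of each of the 9 genes in the 4 vehicle libraries (blue) and the 4 TP-472 libraries (red), with the mean and SD beside each group; the open diamond is vehicle replicate 3. The TP-472 points of SERTAD1 lie above all vehicle points and those of BRD3 below them, and the vehicle SD of BRD3, BRD1 and CDK9 is set largely by the diamond.

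Of the BET genes, BRD3 fell and BRD2 was higher with TP-472. BRD3 (ENSG00000169925.17, GRCh38, chr9:134030305-134068535, minus strand, 15 merged exons) had 54.75, 36.01, 98.89 and 34.90 CPM in vehicle and 17.50, 15.59, 15.20 and 18.78 CPM with TP-472. Every TP-472 library lay below every vehicle library, and vehicle replicate 3 held the highest level. The mean was 56.1 ± 29.9 CPM in vehicle and 16.8 ± 1.68 CPM with TP-472 (SD, n = 4 each). The difference was -1.74 on the log2 scale (SE 0.322, adjusted p = 0.0040), a 3.35-fold fall. Without vehicle replicate 3 the vehicle mean was 41.9 ± 11.2 CPM and the difference was -1.32 (SE 0.156, adjusted p = 9.7e-05). The call held under all 22 alternatives fitted with the same limits, with differences from -1.91 to -1.15. In the fit of all 8 libraries, 2.95% of all genes tested had a larger absolute log2 change than BRD3. This share was not computed for the smaller difference without vehicle replicate 3.

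BRD3 shares its 3′ end with BRD3OS, a gene on the opposite strand (chr9:134025439-134034666). The methods call the libraries strand-specific, but the labels name only a TruSeq RNA kit and no source gives the strand setting of the counting, so reads from the shared stretch may be split wrongly between them. BRD3OS had 28.84, 24.06, 46.61 and 24.48 CPM in vehicle and 25.83, 26.83, 24.53 and 25.81 CPM with TP-472. Its groups overlapped, and its difference was -0.27 (SE 0.208, adjusted p = 0.332), or -0.00 without vehicle replicate 3 (SE 0.080, adjusted p = 0.981).

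BRD2 (ENSG00000204256.13, chr6:32968660-32981505, plus strand, 18 merged exons) had 202.9, 215.4, 266.7 and 218.6 CPM in vehicle and 311.0, 312.7, 301.1 and 306.7 CPM with TP-472. All TP-472 libraries lay above all vehicle libraries, and the TP-472 libraries differed by little among themselves. The mean was 225.9 ± 28.0 CPM in vehicle and 307.9 ± 5.16 CPM with TP-472 (SD, n = 4 each). The difference of 0.45 (SE 0.110, adjusted p = 0.0140) passed the adjusted p-value but stayed under the fold limit, at 1.36-fold. Without vehicle replicate 3 it was 0.54 (SE 0.058, adjusted p = 5.6e-05), again under the fold limit. The opposite-strand gene HLA-DMA, which overlaps the 5′ end of BRD2, was at 2.79 CPM in vehicle and 1.28 CPM with TP-472. BRDT, the testis member of the family, had 0 counts in each vehicle library and 1, 1, 0 and 2 counts with TP-472.

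The balance of both BET genes was compared per length, as CPM per kb of merged exons. The ratio of BRD2 to BRD3 on this scale was 3.47, 5.61, 2.53 and 5.87 in the vehicle libraries and 16.7, 18.8, 18.6 and 15.3 in the TP-472 libraries. The groups did not overlap, and the mean ratio was 4.37 ± 1.63 in vehicle and 17.3 ± 1.66 with TP-472 (SD, n = 4 each), or 4.98 ± 1.31 in vehicle without replicate 3 (SD, n = 3).

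SERTAD1 rose more than any other of the 9 genes, including without vehicle replicate 3. SERTAD1 (ENSG00000197019.5, chr19:40421592-40426025, minus strand, 2 merged exons) had 12.25, 13.51, 17.57 and 16.36 CPM in vehicle and 34.01, 42.17, 40.62 and 34.72 CPM with TP-472. The groups lay far apart, and vehicle replicate 3 was the vehicle library nearest to the TP-472 group. The mean was 14.9 ± 2.46 CPM in vehicle and 37.9 ± 4.12 CPM with TP-472 (SD, n = 4 each), and the difference was 1.34 (SE 0.149, adjusted p = 3.9e-04), a 2.54-fold rise. The difference without that library was 1.43 (SE 0.120, adjusted p = 1.4e-05). The call held under all 22 alternatives fitted with the same limits, with differences from 1.26 to 1.44. By log2 change 2.22% of all genes tested rose more. Of the other SERTA domain genes, SERTAD2 was at -0.35 (adjusted p = 0.236), SERTAD3 at -0.11 (adjusted p = 0.583) and CDCA4 at 0.05 (adjusted p = 0.788), and none passed the test. The CDCA4 value was 0.18 (adjusted p = 0.0552) without vehicle replicate 3. SERTAD4 was under the filter, with 1, 0, 0 and 3 counts in vehicle and 12, 18, 5 and 15 counts with TP-472, and its groups did not overlap (exact two-sided permutation p = 0.0286, the smallest possible here).

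The sequences before the RefSeq transcription starts of SERTAD1, BRD3 and HEXIM1 (GRCh38.p14) are shown because the first is the gene that rose, the next is the gene that fell, and HEXIM1 shares with SERTAD1 the known rise under BET inhibitors but did not pass the test here. Each window begins 250 bases before the start and is written 5′ to 3′ on the gene's strand. The SERTAD1 window (chr19:40426026-40426242) leaves off the 33 bases that GENCODE 29 places in the gene's first exon, the BRD3 window is chr9:134068027-134068276, which GENCODE 29 places in an intron of a longer BRD3 model, and the HEXIM1 window is chr17:45148225-45148474. Capitals mark GGGCGG, the GC box, on either strand (CCGCCC where it is on the other) and TATAAA, the TATA box.
SERTAD1: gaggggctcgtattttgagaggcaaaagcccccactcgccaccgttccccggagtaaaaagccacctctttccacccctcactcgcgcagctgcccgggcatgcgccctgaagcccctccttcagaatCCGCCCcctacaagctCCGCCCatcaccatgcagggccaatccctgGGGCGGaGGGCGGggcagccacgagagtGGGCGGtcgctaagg
BRD3: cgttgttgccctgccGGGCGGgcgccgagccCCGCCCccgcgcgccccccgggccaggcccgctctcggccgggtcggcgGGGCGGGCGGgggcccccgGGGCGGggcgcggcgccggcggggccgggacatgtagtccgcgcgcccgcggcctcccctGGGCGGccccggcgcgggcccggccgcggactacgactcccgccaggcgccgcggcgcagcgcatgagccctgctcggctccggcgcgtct
HEXIM1: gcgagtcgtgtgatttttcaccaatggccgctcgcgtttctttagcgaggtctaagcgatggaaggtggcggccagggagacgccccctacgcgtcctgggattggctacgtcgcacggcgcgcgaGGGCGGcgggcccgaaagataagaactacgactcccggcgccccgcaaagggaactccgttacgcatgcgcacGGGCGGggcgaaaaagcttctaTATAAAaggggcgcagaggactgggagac

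The SERTAD1 window holds 5 GC boxes and the BRD3 window 6, 2 of which overlap each other. The HEXIM1 window holds 2 GC boxes and a TATA box that begins 29 bases before the start. A GC box was found in 12 of the 16 windows of the 9 genes, which all matched an entry, against 42.6% of 35116 windows of the same length over all genes in the table. Some of the 9 genes had several windows. The GC content of the 16 windows ran from 29.6% to 86.8%, and most lay above the median of 58.0% over all windows. The part of GC content in the count of GC boxes was not tested. TATAAA was found in none of the other 15 windows and in 10.7% of all windows. The further motifs searched on both strands were CACGTG (the E-box, found in CCNT1), TGACGTCA (the CRE, found in LARP7), CCGGAAGT (an ETS site, found in CCNT1 and CDK9), TGACTCA (the AP-1 site) and the NF-kB site. The last 2 were in no window of the 9 genes. CACGTG, TGACGTCA and CCGGAAGT were in 6.34%, 1.65% and 3.42% of all windows, and the AP-1 and NF-kB sites in 4.2% and 0.179%. These are matches of letters and not measured binding.

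None of the 3 P-TEFb genes passed the test, and all 3 had vehicle replicate 3 as their most distant vehicle library. CDK9 (ENSG00000136807.14, chr9:127785679-127790787, plus strand) had 32.56, 29.23, 58.62 and 29.82 CPM in vehicle and 35.38, 34.73, 32.88 and 33.76 CPM with TP-472. The TP-472 libraries lay above vehicle replicates 1, 2 and 4 and below vehicle replicate 3. The difference was -0.14 (SE 0.220, 95% interval -0.63 to 0.36, adjusted p = 0.647), and it turned to 0.16 (SE 0.065, interval 0.02 to 0.31, adjusted p = 0.0548) without vehicle replicate 3, and to 0.20 with the GC trend removed from all libraries (SE 0.071, adjusted p = 0.0436). The direction for CDK9 therefore rests on that library.

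CCNT1 (ENSG00000129315.11, chr12:48688458-48716998, minus strand), the cyclin T1 gene, had 133.2, 145.1, 91.54 and 147.2 CPM in vehicle and 161.7, 157.3, 159.9 and 169.8 CPM with TP-472. The TP-472 libraries lay above every vehicle library. The difference was 0.33 (SE 0.151, 95% interval -0.01 to 0.67, adjusted p = 0.117), and without vehicle replicate 3 it was 0.19 (SE 0.061, interval 0.06 to 0.33, adjusted p = 0.0215), a smaller difference with a smaller error. With the GC trend removed from all 8 libraries it was 0.17 (SE 0.053, adjusted p = 0.0215). CCNT2 (ENSG00000082258.13, chr2:134918235-134959342, plus strand), the cyclin T2 gene, had 78.28, 88.09, 47.39 and 86.44 CPM in vehicle and 86.92, 90.31, 91.53 and 100.8 CPM with TP-472. Its groups overlapped only through vehicle replicate 2. The difference was 0.30 (SE 0.185, adjusted p = 0.226), or 0.13 without vehicle replicate 3 (SE 0.071, adjusted p = 0.137), and 0.16 with the GC trend removed (SE 0.060, adjusted p = 0.0465), which passed the adjusted p-value but not the fold limit. The ratio of CCNT1 to CCNT2 per length was 2.15 ± 0.156 in vehicle and 2.16 ± 0.0906 with TP-472 (SD, n = 4 each), and its groups overlapped. It was 2.07 ± 0.0391 in vehicle without replicate 3 (SD, n = 3), again with overlap.

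HEXIM1, the P-TEFb inhibitor, did not pass the test. HEXIM1 (ENSG00000186834.4, chr17:45148502-45152101, plus strand, a single exon) had 40.26, 32.97, 52.69 and 30.21 CPM in vehicle and 46.20, 40.33, 41.17 and 44.83 CPM with TP-472. Vehicle replicate 3 was the highest of all 8 libraries, and the lowest TP-472 library lay just above the second highest vehicle library. The difference was 0.14 (SE 0.173, 95% interval -0.25 to 0.54, adjusted p = 0.530). Leaving that library out gave 0.32 (SE 0.101, interval 0.10 to 0.55, adjusted p = 0.0206), under the fold limit, and with the GC trend removed from all 8 libraries it was 0.08 (SE 0.172, adjusted p = 0.723). Over the 22 alternatives the difference ran from 0.04, without vehicle replicate 4 (adjusted p = 0.865), to 0.43, with sample quality weights in limma-voom (adjusted p = 1.1e-04), and none called HEXIM1.

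LARP7 (ENSG00000174720.16, chr4:112636964-112657592, plus strand), the 7SK RNA-binding protein, had 47.66, 63.00, 36.62 and 62.13 CPM in vehicle and 46.15, 47.72, 46.14 and 46.79 CPM with TP-472. Vehicle replicate 3 was the lowest library and the groups overlapped. The difference was -0.16 (SE 0.169, adjusted p = 0.460), and without vehicle replicate 3 it was -0.30 (SE 0.093, adjusted p = 0.0199). Leaving out vehicle replicate 2 or 4 instead gave -0.06 (adjusted p = 0.786) and -0.07 (adjusted p = 0.765), while sample quality weights in limma-voom gave -0.40 (adjusted p = 3.7e-05). Removal of the GC trend from all 8 libraries gave -0.32 (SE 0.089, adjusted p = 0.0157), so the size of the difference rests on the vehicle libraries and the correction used. ZGRF1, which overlaps the LARP7 start on the opposite strand, was at 77.4 CPM in vehicle and 53.9 CPM with TP-472, so reads from the shared bases of this pair may also be split wrongly.

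The other genes of the particle did not pass the test. MEPCE, the enzyme that caps 7SK RNA, had 34.14, 35.21, 60.10 and 38.02 CPM in vehicle and 46.90, 48.68, 43.48 and 39.87 CPM with TP-472. Its difference was 0.10 (SE 0.188, adjusted p = 0.706), or 0.32 without vehicle replicate 3 (SE 0.081, adjusted p = 0.0075). HEXIM2, the paralog of HEXIM1, was at 5.58 ± 1.46 CPM in vehicle and 4.08 ± 0.236 CPM with TP-472 (SD, n = 4 each), with no overlap and a difference of -0.45 (SE 0.190, adjusted p = 0.0921). This shrank to -0.25 (SE 0.112, adjusted p = 0.0832) without vehicle replicate 3, in which HEXIM2 stood at 7.76 CPM. RN7SK, the RNA of the particle, had 13730, 21630, 8969 and 19450 CPM in vehicle and 18720, 24460, 23550 and 15680 CPM with TP-472. Its groups overlapped, its difference was 0.37 (SE 0.288, adjusted p = 0.332), or 0.17 without vehicle replicate 3 (SE 0.213, adjusted p = 0.511), and its level is uncertain since many near-identical copies of the 7SK sequence lie in the genome. Of the 7 protein genes of P-TEFb and the particle, none was called by edgeR, against 26.9% of all genes, and 0 passed the adjusted p-value alone, against 36.3%. In the fit without vehicle replicate 3, 4 of 7 passed it (CCNT1, HEXIM1 and MEPCE higher and LARP7 lower), against 57% of all genes. In the fit with the GC trend removed 5 of 7 did (CDK9, CCNT1, CCNT2 and MEPCE higher and LARP7 lower), against 53.3% of all genes.

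BRD1 (ENSG00000100425.18, chr22:49773283-49827512, minus strand) had 52.42, 39.35, 83.81 and 36.42 CPM in vehicle and 33.65, 32.72, 28.80 and 34.61 CPM with TP-472. The TP-472 libraries lay below all vehicle libraries, though by little below vehicle replicate 4. The difference was -0.71 (SE 0.248, adjusted p = 0.0512), just above the limit, and without vehicle replicate 3 it was -0.40 (SE 0.122, adjusted p = 0.0195), which passed the adjusted p-value but not the fold limit, as did -0.55 with the GC trend removed (SE 0.162, adjusted p = 0.0194). Of the 22 alternatives fitted with the same limits, 7 called BRD1 lower. Over them the difference ran from -0.85 to -0.25, the smallest with sample quality weights in limma-voom (adjusted p = 0.0123).

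**Figure D3:**
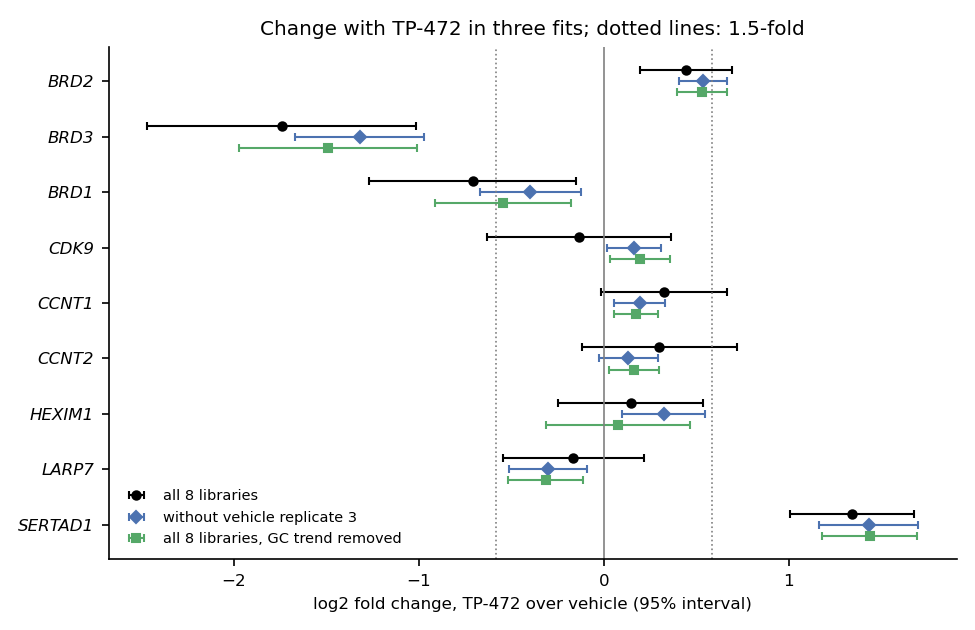
Log2 fold changes of TP-472 over vehicle (x axis) with 95% intervals for the 9 genes in 3 fits: all 8 libraries (black circles), without vehicle replicate 3 (blue diamonds) and all 8 libraries with the GC trend removed (green squares). SERTAD1 and BRD3 lie beyond the dotted 1.5-fold lines in each fit, CDK9 lies on opposite sides of 0 between fits, and the intervals narrow without vehicle replicate 3 for all 9 genes.

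Per kb of merged exons, BRD2 had the highest level of the 9 genes in both groups and SERTAD1 moved most in the order. In vehicle the order was BRD2 at 30.8 ± 3.82 CPM per kb, CCNT1 at 17.5 ± 3.51, LARP7 at 12.8 ± 3.09, CDK9 at 12.5 ± 4.71, HEXIM1 at 10.8 ± 2.79, BRD1 at 9.06 ± 3.71, CCNT2 at 8.26 ± 2.08, BRD3 at 8.16 ± 4.35 and SERTAD1 at 7.06 ± 1.17 (SD, n = 4 each). Among neighbours in this order, BRD2 and CCNT1 alone did not share any part of their range over the libraries. With TP-472 the order was BRD2 at 42.0 ± 0.704 CPM per kb, CCNT1 at 22.0 ± 0.732, SERTAD1 at 17.9 ± 1.95, HEXIM1 at 11.98 ± 0.785, LARP7 at 11.4 ± 0.182, CDK9 at 11.4 ± 0.366, CCNT2 at 10.2 ± 0.655, BRD1 at 5.55 ± 0.436 and BRD3 at 2.44 ± 0.244 (SD, n = 4 each). In this order HEXIM1, LARP7, CDK9 and CCNT2 overlapped from neighbour to neighbour, and the other neighbours were separate. With vehicle replicate 3 left out, the vehicle order was BRD2, CCNT1, LARP7, CDK9, HEXIM1, CCNT2, BRD1, SERTAD1 and BRD3, and BRD2, CCNT1 and LARP7 were each separate from the next gene. The median coefficient of variation over all genes was 7.89% with TP-472 and 23.2% in vehicle, or 9.48% in vehicle without replicate 3.

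Genes of the surrounding pathways were taken from 10 lists, of which 104 of 109 genes passed the filter, 9 rose, SERTAD1 among them, and 14 fell, BRD3 among them. Over all genes tested 12% were called higher and 14.9% lower. The median log2 fold change over all genes was -0.03, and 51.8% of the genes were lower with TP-472. In the super elongation complex, the assembly that carries P-TEFb to paused polymerase, 9 of 10 genes were tested, with 4 higher and 2 lower. The 4 were EAF2 (2.03, SE 0.295, adjusted p = 0.0013), MLLT3 (1.14, SE 0.264, adjusted p = 0.0108), ELL2 (1.00, SE 0.135, adjusted p = 9.97e-04) and EAF1 (0.78, SE 0.101, adjusted p = 8.3e-04), and EAF1 and EAF2 are partners of the ELL proteins. EAF2, at 0.405 CPM in vehicle and 1.67 CPM with TP-472, and MLLT3, at 0.758 and 1.68 CPM, passed the filter through the TP-472 libraries alone. Both had to be higher to be tested, so neither this count of 4 nor the count of 9 over the 10 lists is read against the background. ELL2, an elongation factor of the complex, had 47.80, 48.03, 34.74 and 50.56 CPM in vehicle and 89.35, 83.88, 88.81 and 100.2 CPM with TP-472, so its groups lay far apart. AFF1, a scaffold of the complex, fell by 0.80 on the log2 scale (SE 0.206, adjusted p = 0.0166) and ELL3 by 0.59 (SE 0.165, adjusted p = 0.0223), whereas AFF4, the other scaffold, was at -0.03 (adjusted p = 0.856). The same 6 genes were called without vehicle replicate 3. With the GC trend removed ELL3 was not called (-0.55, adjusted p = 0.0423) and ELL was called higher (0.61, adjusted p = 0.0012), which makes 5 higher and 1 lower.

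Among 16 genes of pausing and elongation factors, 1 rose and none fell, against 12% and 14.9% of all genes, with a median of 0.05. It was SUPT4H1, a subunit of the pausing factor DSIF, at 0.83 (SE 0.214, adjusted p = 0.0169), and CTR9, a subunit of the PAF complex, was higher by 0.43 (SE 0.084, adjusted p = 0.0052), under the fold limit. Of 9 other transcriptional CDK and cyclin genes, CCNC and CDK8 rose and CDK19 fell, 3 calls where 26.9% of all genes were called, with a median of -0.03. CDK8, the kinase of the Mediator module, had 17.71, 18.42, 12.59 and 19.45 CPM in vehicle and 27.98, 28.41, 28.72 and 30.33 CPM with TP-472, a difference of 0.76 (SE 0.145, adjusted p = 0.0047). CDK19, its paralog, had 78.55, 70.85, 47.33 and 69.30 CPM in vehicle and 39.19, 36.22, 35.54 and 40.45 CPM with TP-472, a difference of -0.81 (SE 0.156, adjusted p = 0.0047). The groups of neither gene overlapped, and both calls held without vehicle replicate 3. CCNC, their cyclin, was at 0.79 (SE 0.273, adjusted p = 0.0499) and was under the fold limit without vehicle replicate 3, at 0.55.

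Of 37 bromodomain genes outside the BET family 36 were tested, 6 fell and none rose, against 14.9% and 12% of all genes, so the count that fell lies near the background. A negative difference was found for 31 of the 36, against 51.8% of all genes, and the median was -0.38, against -0.03 over all genes. The 4 that fell most were CECR2 (-1.07, SE 0.230, adjusted p = 0.0078), SP110 (-0.87, SE 0.122, adjusted p = 0.0012), TRIM66 (-0.85, SE 0.245, adjusted p = 0.0255) and BRWD3 (-0.82, SE 0.152, adjusted p = 0.0041). The targets of the compound were not called: BRD9 had a difference of -0.16 (SE 0.179, adjusted p = 0.486) and BRD7 of 0.11 (SE 0.086, adjusted p = 0.324). The BRD9 difference turned to 0.06 (SE 0.061, adjusted p = 0.440) without vehicle replicate 3, where BRD9 stood at 114.5 CPM against 66.1 to 72.1 CPM in the other vehicle libraries. Leaving out vehicle replicate 3, 30 of the 36 had a negative difference and 6 were called lower, where 13.4% of all genes were. With the GC trend removed 32 had a negative difference and 10 were called lower, where 14.8% of all genes were. Of 12 genes of BRPF, MOZ and HBO1 acetyltransferase complexes, 2 fell and none rose, against 14.9% and 12% of all genes, and the median was -0.30. JADE2 fell by 1.48 on the log2 scale (SE 0.228, adjusted p = 0.0018) and KAT6B by 0.77 (SE 0.154, adjusted p = 0.0058). The JADE2 difference was -1.19 without vehicle replicate 3 (SE 0.087, adjusted p = 6.4e-06), and KAT6B was called there too. JADE2 is a scaffold of the HBO1 complex, and KAT6B is an acetyltransferase.

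**Figure D4:**
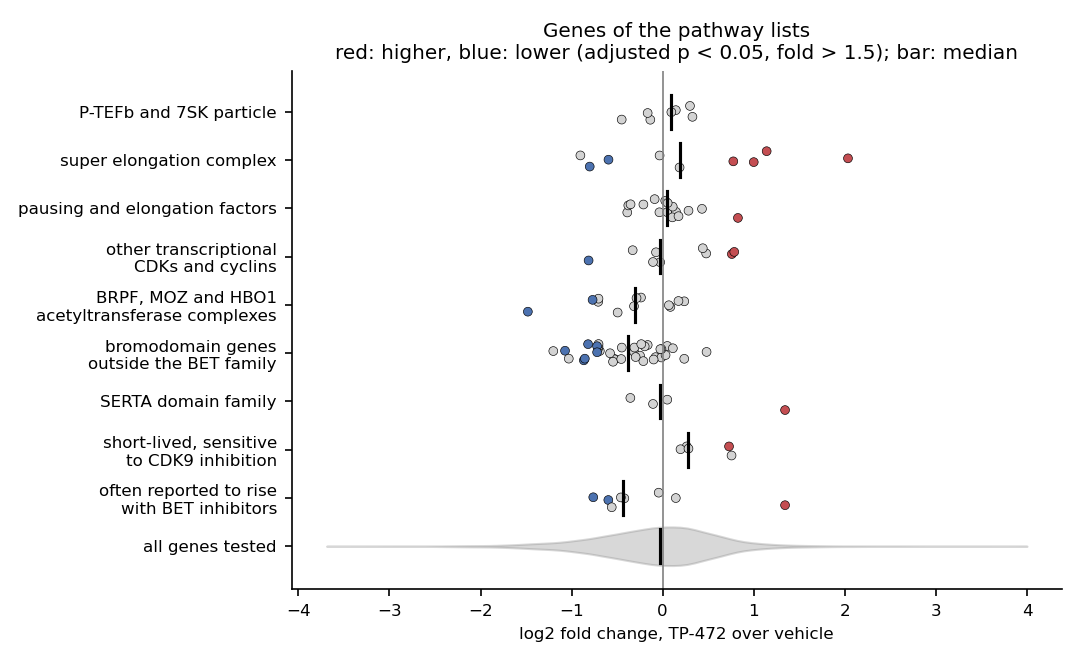
Log2 fold changes of TP-472 over vehicle (x axis) are plotted for the genes of 9 pathway lists, a point per gene (red called higher, blue called lower, grey not called), with a bar at each median, and for all 14073 genes tested as a density (values beyond 4 are drawn at 4). Bromodomain genes outside the BET family have a median of -0.38 and hold 6 blue points and no red point.

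The number of genes called among short-lived transcripts, which are known to depend on P-TEFb, rested on vehicle replicate 3. All 5 genes of this list (MYC, MCL1, JUNB, FOS and IER2) had a positive difference, with a median of 0.28, and MCL1 alone rose, by 0.73 (SE 0.147, adjusted p = 0.0060), where 12% of all genes were called higher. Without vehicle replicate 3 all 5 were called higher, with a median of 0.67, against 12% of all genes called higher in that fit, and with the GC trend removed 4 of 5 were, against 13.4%. MCL1, an anti-apoptotic protein of the BCL-2 family, had 246.8, 286.7, 185.8 and 290.6 CPM in vehicle and 406.6, 419.7, 420.2 and 426.8 CPM with TP-472. MYC, a transcription factor, had 132.2, 119.4, 281.6 and 124.0 CPM in vehicle and 199.6, 189.8, 189.3 and 210.4 CPM with TP-472, so vehicle replicate 3 was the highest library of all. The MYC difference was 0.26 (SE 0.267, adjusted p = 0.455) with that library and 0.66 (SE 0.066, adjusted p = 3.8e-05) without it.

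Of 9 genes often reported to rise with BET inhibitors, 8 were tested, SERTAD1 was the only gene that rose and 2 fell, against 12% and 14.9% of all genes. H2BC21 and H2BC5, both histone H2B genes, fell by 0.76 (SE 0.198, adjusted p = 0.0171) and 0.60 (SE 0.127, adjusted p = 0.0075) on the log2 scale, and the median over the 8 tested genes was -0.44. H2BC5 and H2BC21 were under the fold limit without vehicle replicate 3, at -0.49 and -0.52. With the GC trend removed 1 gene of this list was called higher and 3 lower, against 13.4% and 14.8% of all genes. SERPINI1, a secreted protease inhibitor, was under the filter, with 9, 7, 2 and 6 counts in vehicle and 36, 35, 32 and 33 counts with TP-472. Its CPM ratio was 5.43, with no overlap between groups (exact two-sided permutation p = 0.0286, the smallest that 4 against 4 libraries can give).

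For SERTAD1, HEXIM1 and BRD2 the 3 genes with the most similar pattern were taken by Pearson's r of log2 CPM over the 8 libraries. All these libraries share the TP-472 contrast and the GC trend of vehicle replicate 3, and r is given as a description. For SERTAD1 they were EMSLR (r = 0.995), DUSP1 (r = 0.994) and C12orf60 (r = 0.994), with differences of 0.99, 1.53 and 1.88 on the log2 scale. For HEXIM1 they were VAMP1 (r = 0.990), SZRD1 (r = 0.979) and NOMO1 (r = 0.976), whose differences of 0.08, 0.04 and 0.09 did not pass the test. For BRD2 they were CCDC137 (r = 0.998), AAR2 (r = 0.997) and CD3EAP (r = 0.997), with differences of 0.90, 0.57 and 1.33.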

How the data were processed

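RNA of SK-UT-1 cells after 48 h with 5 µM TP-472 or vehicle was measured in 4 libraries each. The authors mapped reads with Salmon 1.4.0, per the labels, and summed transcripts to genes with tximport and GENCODE 34, so the deposited values are estimated counts, neither normalized nor filtered. All columns of samples were used.

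Estimated counts were rounded. The filter required over 1 CPM in 4 or more of the 8 libraries, libraries were TMM-scaled, and groups were compared with the quasi-likelihood test of edgeR 4.0.16 (R 4.3.3) without further terms. Fold and p-value limits follow the study. The GC alternative subtracted each library's trend over transcript GC content, known for 99.3% of the genes tested. Coordinates are from GENCODE 29 on GRCh38, joined by gene identifier, and promoters from RefSeq (GRCh38.p14). The members and gene lists were chosen with earlier results of these data known. The genes named are the 9 members, all genes of P-TEFb and the 7SK particle, BRD9 and BRD7, up to 4 called genes per direction and list, and the 3 nearest in pattern. ELL, AFF4, SERTAD2, SERTAD3, SERTAD4, CDCA4, MYC, JUNB, FOS, IER2, CTR9, SERPINI1, BRD3OS, RN7SK and the markers were added. Values of some listed genes are not reported here, although counts include them.

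Library totals were 32574672 to 38545464 counts. The part of counting error in the spread of the 9 genes between replicates was not tested. The lowest mean chi-square between 2 libraries was 13.8, so none was a copy. Alternatives were DESeq2 1.42.0, limma-voom (limma 3.58.1), other scalings, filters and limits, a replicate block, GC correction and each library left out. Their joint use without vehicle replicate 3 was added after seeing the data.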

Additional observations from a re-analysis of the deposited data

Results flagged for a closer look

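In 18 of 131 groups of 4 libraries with any spread (69 named genes in both treatments), a library lay far from the other 3 by Dixon's test at the 95% level, which chance alone gives in about 1 of 20 groups. The genes nearest in pattern and the neighbours HLA-DMA and ZGRF1 were not checked. Vehicle replicate 3 was that library in 11 of the 18, each time as the highest vehicle library of its gene, and of the 9 BET, P-TEFb and SERTAD1 genes this held for CDK9 alone, at 58.62 CPM. It also held for HEXIM2 at 7.76 CPM, MEPCE at 60.1 CPM, BRD9 at 114.5 CPM, JADE2 at 100.8 CPM, H2BC21 at 800.0 CPM, ELL at 23.88 CPM, MYC at 281.6 CPM, JUNB at 71.53 CPM, IER2 at 46.03 CPM and SMTN at 158.3 CPM. The part of that library's GC trend in these values was not tested. TP-472 replicate 4 lay apart for SERTAD2, at 94.64 CPM. Vehicle replicate 1 was low for TAGLN, at 27.18 CPM, and for CD68, at 6.678 CPM. The rest were low levels: CDH1 at 0.673 CPM and CDH5 at 0.05177 CPM in TP-472 replicate 1, MYH11 at 0.0281 CPM in vehicle replicate 4 and PTPRC at 0.02819 CPM in TP-472 replicate 2.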

How the results depend on the processing

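SERTAD1 and BRD3 kept their direction and their call under every alternative listed here that kept the fold limit of 1.5. Over all genes, 3789 were called (1693 higher, 2096 lower), 1123 (529 and 594) when tested against a 1.5-fold change, and 1704 (639 and 1065) with a fold limit of 2, and DESeq2 called 2678 higher, from more genes tested. Leaving out each library in turn gave 2690 to 4223 calls, with 1303 to 1824 higher and 1387 to 2399 lower; the fewest came without TP-472 replicate 3. Without a fold limit BRD2 passed at 0.447, so 2 members were higher, and 22 pathway genes were lower. BRD1 passed under DESeq2 (-0.698), RLE scaling (-0.716), upper-quartile scaling (-0.731), no filter (-0.699) and edgeR's filterByExpr (-0.705), so 2 members were lower in each. It also passed without vehicle replicate 2 or 4. With libraries left out its difference ran from -0.851 to -0.397, with 1 to 2 members lower. CDK9 turned to 0.204 under voom quality weights, 0.196 with the GC trend removed, 0.199 with the block and the GC trend, and 0.247 without vehicle replicate 3 and the GC trend, and ran from -0.238 to 0.163 with libraries left out. Of the pathway genes, 3 rose and 2 fell when tested against the fold, and 3 rose and 3 fell at a fold limit of 2. The causes were not tested. Same-numbered libraries did not deviate together (r from -0.177 to 0.116, and 1 of 8 libraries was nearest to its own number). With few libraries per group and vehicle replicate 3 far from the rest, this cannot exclude pairing by number. With the replicate block 3055 genes were called (1500 higher, 1555 lower), members again 1 and 1, and BRD2 had an adjusted p of 0.0586. The part of sequencing depth in the values of genes near the filter, such as EAF2, was not tested.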
